A study of Rattus norvegicus with 72 samples.

Results

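The arrays described here are the 3 taken at 12 h and the 3 taken at 8 h after a distal lesion of the sciatic nerve, labelled a, b and c at each hour, 6 of the 72 arrays of the series. They were chosen by lesion, hour and letter, and the 2 distal arrays of 8 h whose letter is followed by o were left out of the comparison. The RNA on each array came from lumbar dorsal root ganglia (L4 and L5) of Wistar rats, 8 to 12 weeks old, whose nerve had been crushed, and was hybridised to an Affymetrix rat expression array. For comparison the series had 2 arrays at 12 h and 3 at 8 h after a proximal lesion, and 2 arrays at 12 h and 3 at 8 h labelled sham. Nothing in the labels ties an array to an animal of its own, so the p-values reflect differences among arrays that may be technical. They also do not give the hour of day of the dissections, so hours after the lesion and time of day cannot be told apart. The sources used here do not give the meaning of the letter o.

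In these ganglia lie the cell bodies of the sensory neurons that send axons down the sciatic nerve, together with the satellite glia that wrap each cell body. A crush far out on the axon is reported to the cell body by electrical activity and then by proteins carried back along the axon, among them kinases and transcription factors bound to dynein. Injured neurons then switch on transcription factors such as Atf3, Jun and Sox11, growth-associated genes and secreted factors, and the glia and resident immune cells of the ganglion respond in turn. The question put to these arrays was which genes of the ganglion stood at another level at 12 h than at 8 h, the step before Il6, an injury-induced cytokine, became detectable.

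All values are log2 RMA levels, so a difference of 1 is a doubling. Of 14217 named genes, 12276 passed a filter on low mean level over all arrays (5.46 log2) and were tested. In the fit of all 72 arrays 0 genes passed an adjusted p under 0.05 between 12 h and 8 h (limma, 0% of genes tested, smallest adjusted p 0.942), and 229 had an unadjusted p under 0.05 (1.87%), 141 higher and 88 lower at 12 h. The groups differed in spread. The median residual standard deviation was 0.218 over all arrays, 0.136 among the 23 distal arrays with letters a to c and 0.335 among sham and proximal arrays of 12, 16 and 18 h. In a fit of those 23 distal arrays 3 genes passed (limma, 0.0244%), all higher at 12 h: Atf3, Ccl2 and Slc25a30. In that fit 780 genes were higher (6.35%) and 340 lower (2.77%) at an unadjusted p under 0.05, while a fit of the 6 arrays alone called 0 genes with 708 at an unadjusted p under 0.05. The text below gives p-values and 95% intervals from the fit of the distal arrays unless it names the other.

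A second description used the arrays directly. The 3 arrays of 12 h all lay above the 3 arrays of 8 h for 1014 genes (8.26% of genes tested) and all below them for 508 genes (4.14%), and such genes are called non-overlapping here. The median difference over all genes was 0.02. The arrays of 12 h were not alike. Array b of 12 h was the lowest of its group in 9 of the 10 non-overlapping genes of the injury list, and array c the highest in 10 of 10, while over all genes b was lowest in 43.6% and c highest in 53.6%. Leaving out b raised the number of genes called in the distal fit to 63, of which 58 were higher and 5 lower at 12 h, and leaving out a or the 8 h array c lowered it to 0. At 8 h, array b had 118 genes more than 1 below both other arrays, and array c had skeletal muscle markers at a mean of 11.44, against 7.11 and 7.26 in arrays a and b. At 12 h the same 12 muscle markers averaged 9.23, 6.94 and 8.46.

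Markers of sensory neurons stood far above the filter level on every array. The 18 tested markers of sensory neurons, among them Isl1, Avil and Prph, averaged 11.72, 11.69 and 11.64 at 12 h and 11.73, 11.53 and 11.69 at 8 h, and 0 of 18 were non-overlapping. Markers of macrophages (20 genes, 7.99 to 8.24 at 12 h and 7.92 to 8.36 at 8 h) and of myelinating Schwann cells (10 genes, 10.40 to 10.68 and 10.51 to 10.66 in the same order) overlapped in their mean levels, with 0 non-overlapping members each. Over all genes tested 8.26% were non-overlapping and higher and 4.14% lower, so lists this short would hold few such members. The satellite glia list (8 genes) averaged 10.66, 10.45 and 10.80 at 12 h against 10.42, 10.36 and 10.41 at 8 h, and did not overlap. Of the 13 marker lists only neutrophils (2 genes, 5.30 to 5.44 at 12 h and 5.55 to 5.99 at 8 h) did likewise. In the satellite glia list 6 of 8 members overlapped and the median difference was 0.10, while Fabp7 differed by 1.07. The mean of that list thus leans on Fabp7. In tissue RNA, more cells of a type and more RNA per cell cannot be told apart.

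**Figure D1:**
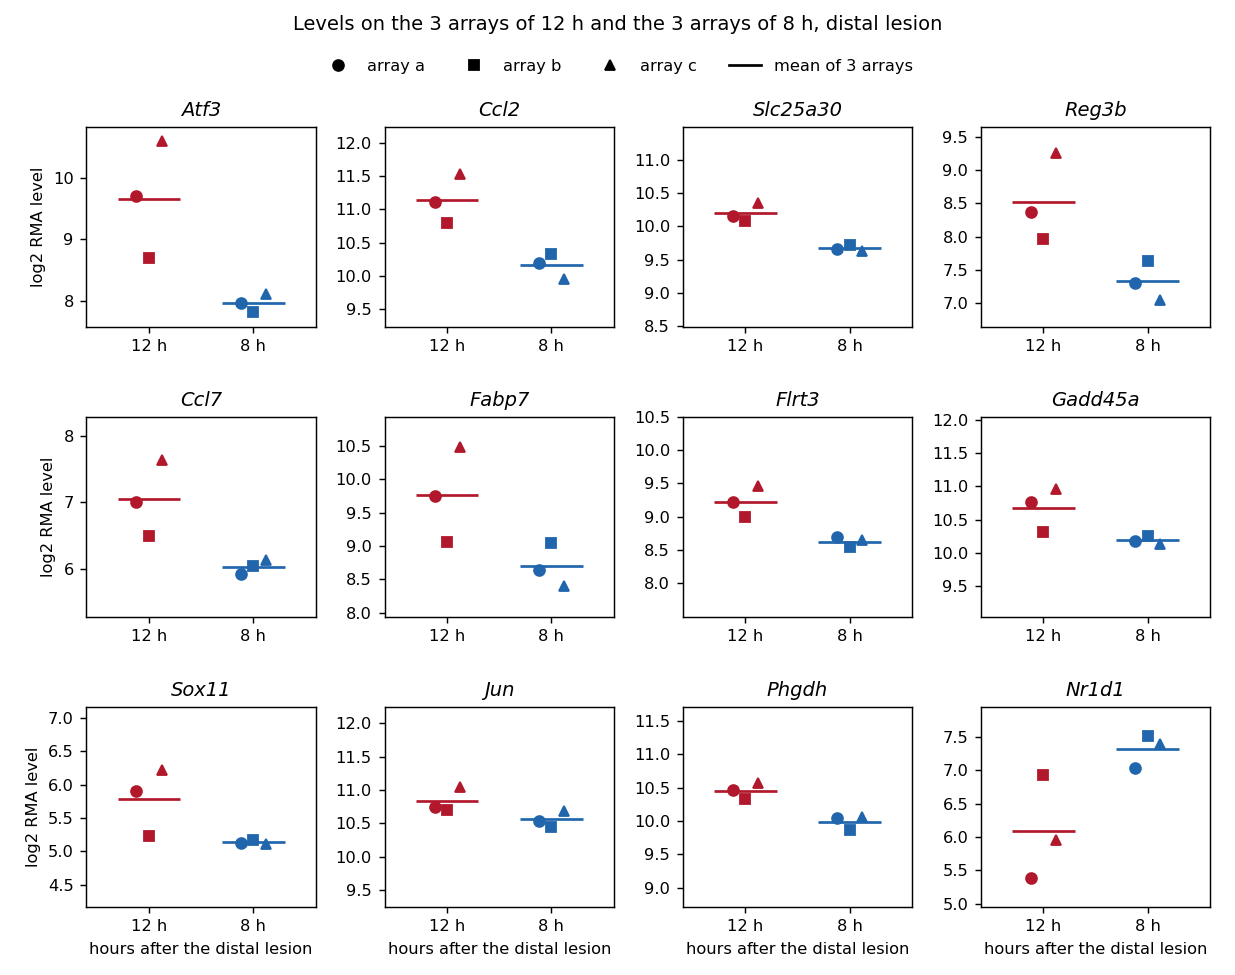
Log2 RMA levels (vertical axes, each spanning at least 3 log2 units) on the 3 arrays of 12 h (red) and the 3 arrays of 8 h (blue) after the distal lesion for 12 genes, with array letters as symbols and the mean of each group as a line. In Atf3, Reg3b, Ccl7 and Fabp7 array b of 12 h lies nearest to the 8 h arrays and array c farthest from them, and Nr1d1 lies lower at 12 h on every array.

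Among transcription factors, Atf3, the stress-induced factor that marks axotomised sensory neurons, showed the largest difference of the genes called. It stood at 9.71, 8.69 and 10.60 at 12 h, against 7.96, 7.82 and 8.11 at 8 h. The lowest array of 12 h was 0.58 above the highest of 8 h, and the arrays of 12 h spread widely while those of 8 h lay close together. The difference was 1.70 (3.26-fold, 95% interval 1.17 to 2.24, adjusted p = 0.00829 in the distal fit, and 1.00 in the fit of all arrays). The residual standard deviation of Atf3 was 0.373 in the distal fit and 0.683 in the 6 arrays compared. The interval and p of the distal fit thus rest on a smaller spread than that of these 6 arrays. Among distal arrays with letters a to c, Reg3b, Gadd45a, Fabp7, Ccl2, Ccl7 and Nr1d1 also had their largest standard deviation at 12 h. It was 0.66, 0.33, 0.71, 0.36, 0.58 and 0.78, in that order. The intervals given below for these genes thus also rest on a smaller spread than that of the 12 h arrays. Atf3 passed in 4 of the 6 fits that each left out 1 array, with differences from 1.24 to 2.19. The adjusted p was 0.0715 without array a of 12 h and 0.0594 without array c of 8 h. The 2 arrays of 8 h marked o had Atf3 at 8.38 and 8.27, below every array of 12 h.

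Jun, the AP-1 subunit required for regeneration, was at 10.75, 10.70 and 11.05 at 12 h, against 10.53, 10.45 and 10.69 at 8 h. The groups did not overlap, though the gap between b of 12 h and c of 8 h was 0.01. The difference was 0.28 (95% interval 0.09 to 0.46, unadjusted p = 0.00514, adjusted p = 0.363), and its other probe sets gave 0.22 and 0.30. Sox11, a neuronal growth factor of transcription, was at 5.90, 5.23 and 6.22 at 12 h against 5.13, 5.17 and 5.11 at 8 h. All arrays of 8 h and array b of 12 h lay below the filter level, so only a bound can be given. The 12 h mean was 1.25-fold above that level. This bound rests on arrays a and c and does not hold for array b, and the adjusted p was 0.363. Smad1, the BMP effector used in regeneration, stood at 9.93, 9.91 and 10.19 against 9.85, 9.84 and 9.89, non-overlapping by a small margin (difference 0.15, adjusted p = 0.698). Stat3, which transduces cytokine signals from injured axons, was at 10.34, 10.39 and 10.44 against 10.26, 10.45 and 10.43. Its groups overlapped, and the 95% interval of the difference ran from -0.17 to 0.18. Klf6 overlapped on its main probe set (difference -0.04), while 2 other probe sets were 0.62 and 0.85 higher at 12 h with unadjusted p of 0.0788 and 0.0282, so its probe sets disagree.

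Of the immediate-early and AP-1 list, 4 of 30 tested members were non-overlapping and higher at 12 h (13.3%, against 8.26% of all genes) and 2 lower (6.67%, against 4.14%). In the distal fit 1 of 30 (Atf3) passed, against 0.0244% of all genes. The other higher members were Jun, Fos and Gadd45g. Fos stood at 9.01, 9.05 and 8.95 at 12 h against 8.78, 8.27 and 8.05 at 8 h, but a second probe set of Fos gave -0.24, so its direction is not settled. The lower members were the orphan receptors Nr4a1 (difference -0.25) and Nr4a3 (-0.13). Egr1 overlapped, at 9.08, 8.19 and 8.94 against 8.41, 8.07 and 8.47.

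The injury and regeneration list as a whole had 10 of 48 tested members non-overlapping and higher at 12 h (20.8%, against 8.26% of all genes tested) and 0 lower. The 10 were Atf3, Jun, Sox11, Smad1, Reg3b, Gadd45a, Flrt3, Socs3, Lmo7 and Fabp5. Of these, Sox11 had array b of 12 h and all arrays of 8 h below the filter level, where levels carry no order. Of the 48 members of the list 35 were higher at 12 h, against 6911 of 12276 genes. The median difference was 0.10 in the list and 0.02 over all genes. In the distal fit 1 member passed the adjusted p and 10 were higher at an unadjusted p under 0.05, against 6.35% of all genes. Without each array in turn the non-overlapping count ran from 10 to 19 while the share of all genes ran from 12.1% to 18.1%.

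Reg3b, a secreted lectin induced in injured sensory neurons, was at 8.36, 7.97 and 9.25 at 12 h, against 7.30, 7.63 and 7.05 at 8 h. Array b of 12 h lay 0.33 above array b of 8 h, and array c of 12 h was far above the rest. The difference was 1.20 (2.30-fold, 95% interval 0.70 to 1.69, adjusted p = 0.0885). Gadd45a, a growth arrest and DNA damage gene and one of the strongest markers of axotomy, was at 10.77, 10.32 and 10.95 against 10.18, 10.25 and 10.13. Its 8 h arrays lay within 0.12 of each other, and array b of 12 h was just above them (difference 0.49, 95% interval 0.29 to 0.70, adjusted p = 0.0885). Flrt3, a leucine-rich membrane protein that promotes neurite growth, was at 9.22, 8.99 and 9.46 against 8.70, 8.54 and 8.65. Every array of 12 h lay clearly above every array of 8 h (difference 0.60, 95% interval 0.36 to 0.84, adjusted p = 0.0885).

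Socs3, the feedback inhibitor of cytokine receptors, stood at 6.76, 6.69 and 6.78 against 6.62, 6.50 and 6.25 (difference 0.29, adjusted p = 0.512). Lmo7, a LIM domain scaffold protein, differed by 0.45 and Fabp5, a fatty acid binding protein of injured neurons, by 0.16. Several well-known injury genes overlapped at this step. Gap43 of the growth cone was at 12.44, 12.52 and 12.51 at 12 h against 12.46, 12.47 and 12.40 at 8 h, with a 95% interval of the difference from -0.05 to 0.14. The neuropeptides Gal (8.96, 8.93 and 8.91 against 8.75, 9.16 and 8.76), Npy (7.75, 7.79 and 7.87 against 7.62, 8.34 and 7.81) and Adcyap1 (10.25, 10.19 and 10.62 against 10.32, 10.37 and 10.01) overlapped. Vip and Sprr1a lay below the filter level in both groups, and Csrp3, a muscle LIM protein also induced in axotomised neurons, overlapped with its highest value on the muscle-marked array c of 8 h (6.54).

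**Figure D2:**
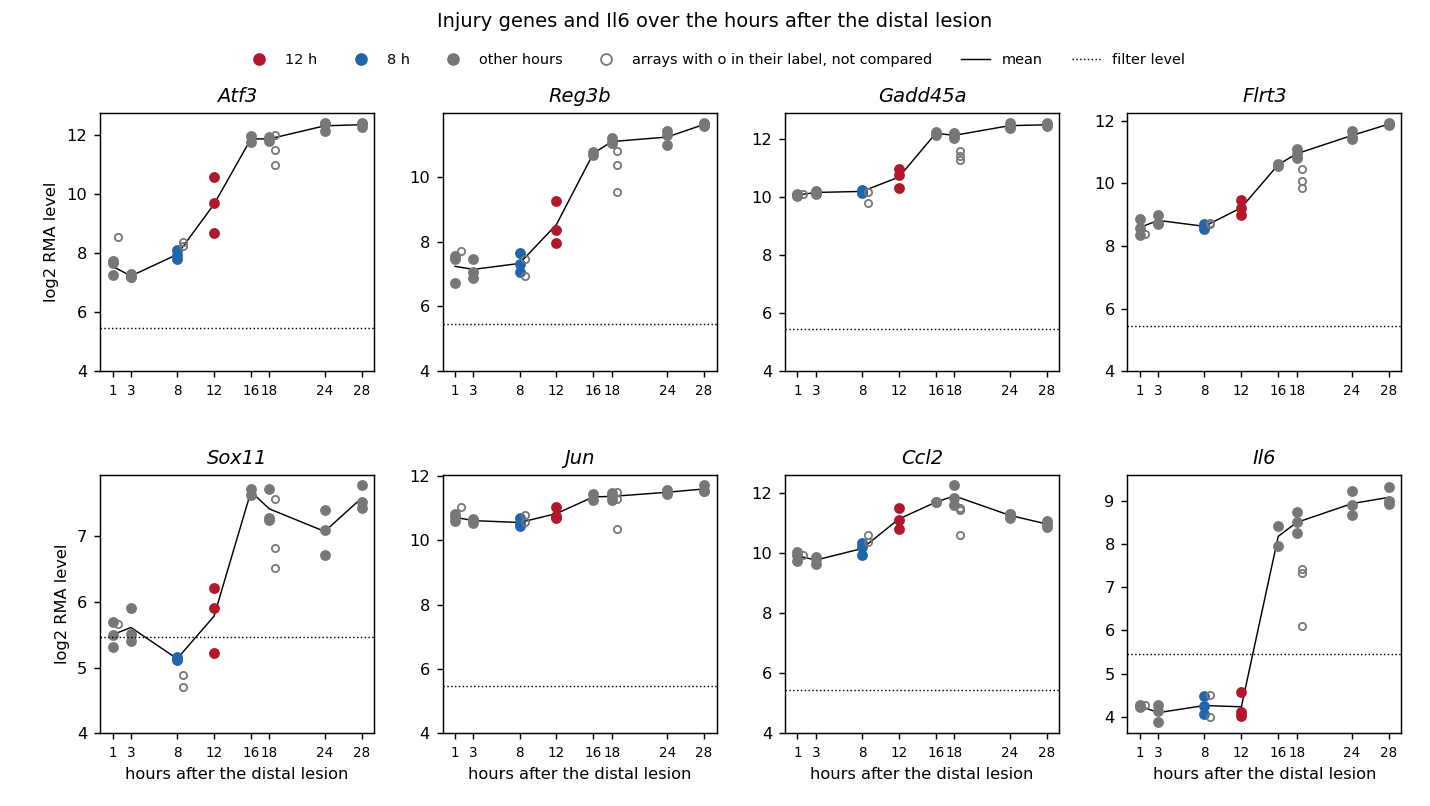
Log2 RMA levels of 7 genes and Il6 on every distal array (vertical axes) by hours after the lesion (horizontal axes), with 12 h in red, 8 h in blue, other hours in grey, arrays marked o as open circles and the filter level as a dotted line. The 12 h arrays of Atf3 lie between 8.69 and 10.60, above the 8 h arrays and below the 16 h arrays (11.79 to 11.97), while Il6 stays below the filter level at both hours.

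The later distal hours, which the comparison did not use, place these values. Atf3 averaged 7.56 ± 0.26 at 1 h, 7.23 ± 0.06 at 3 h, 7.96 ± 0.15 at 8 h, 9.67 ± 0.95 at 12 h (SD, n = 3 each), 11.88 ± 0.13 at 16 h (n = 2) and 12.36 ± 0.07 at 28 h (n = 3). The 12 h group had the largest spread of these hours, and its mean lay between those of 8 and 16 h. Reg3b averaged 7.33 ± 0.29 at 8 h, 8.53 ± 0.66 at 12 h and 10.72 ± 0.07 at 16 h, and Gadd45a 10.19 ± 0.06, 10.68 ± 0.33 and 12.19 ± 0.08 at the same hours. Flrt3 was at 10.60 ± 0.04 at 16 h and 11.89 ± 0.03 at 28 h. Genes that overlapped between 12 and 8 h were at other levels later. Adcyap1 averaged 10.35 at 12 h, 11.47 at 16 h and 12.48 at 28 h. Gal averaged 8.93 at 12 h, 9.18 at 16 h and 10.63 at 28 h, and Sprr1a reached 6.66 at 24 h, above the filter level.

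Il6 itself, the cytokine of the gp130 family that injured sensory neurons produce, lay below the filter level on all 6 arrays, at 4.01, 4.12 and 4.57 at 12 h and 4.25, 4.48 and 4.06 at 8 h. The groups overlapped, and a difference between them was not measurable at this signal. At 16 h its 2 distal arrays stood at 7.94 and 8.41. In the gp130 and JAK-STAT list, 3 of 22 tested members were non-overlapping and higher at 12 h (13.6%, against 8.26% of all genes) and 0 lower, namely Socs3, Ptpn2 and Pias1. Ptpn2, a phosphatase that switches off JAK kinases, was at 8.85, 9.03 and 9.16 at 12 h, against 8.51, 8.76 and 8.48 at 8 h. Its difference was 0.42 (95% interval 0.20 to 0.65, adjusted p = 0.243). Pias1, a SUMO ligase, differed by 0.14.

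Reg3b is a known target of this pathway in other tissues, and its promoter is shown because it was the member of the injury list whose promoter held a motif searched for. The RefSeq promoter table (build GRCr8) covered 7 of the 10 non-overlapping injury genes, each with 250 bases upstream of the gene's start, and motifs were read on both strands. The motifs were TTCNNNGAA for STAT factors, TGACTCA for AP-1, TGACGTCA for CREB and ATF factors, CACGTG for the E-box of clock and other basic helix-loop-helix factors, and TAGGTCA for the orphan receptors ROR and REV-ERB. Of the 7 promoters, 1 held TTCNNNGAA and 0 held any of the other 4, where 7.67%, 4.05%, 1.59%, 5.59% and 2.26% of 33469 rat promoters held them, in the order just given. In the promoter of Reg3b (chr4:112419526-112419775, plus strand) the match, in capitals, begins 129 bases before the start.
Reg3b: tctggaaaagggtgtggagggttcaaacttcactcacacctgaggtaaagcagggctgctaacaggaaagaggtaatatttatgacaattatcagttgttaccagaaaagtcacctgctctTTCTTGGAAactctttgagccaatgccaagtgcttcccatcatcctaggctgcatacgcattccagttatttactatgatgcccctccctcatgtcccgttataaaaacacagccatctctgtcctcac

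Among the chemokines, Ccl2, which draws monocytes and is made by injured sensory neurons, passed in the distal fit. It was at 11.11, 10.80 and 11.53 at 12 h, against 10.20, 10.33 and 9.95 at 8 h. The groups were 0.47 apart at their nearest, with b again the lowest and c the highest array of 12 h. The difference was 0.99 (1.98-fold, 95% interval 0.68 to 1.29, adjusted p = 0.00829 in the distal fit, and 1.00 in the fit of all arrays). It passed in 3 of the 6 fits that each left out 1 array, with differences from 0.80 to 1.16. The 2 arrays of 8 h marked o stood at 10.62 and 10.37, below each array of 12 h.

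Ccl7, its neighbour in function and a ligand of the same receptor, was at 7.00, 6.49 and 7.64 at 12 h against 5.93, 6.04 and 6.13 at 8 h. No arrays overlapped, but a difference of 1.01 (95% interval 0.56 to 1.47) had an adjusted p of 0.147. One of the 2 arrays of 8 h marked o was at 6.91, within the range of 12 h. Vcam1, an adhesion molecule for leukocytes, was the third non-overlapping member of the chemokine and NF-kappaB list (3 of 22 tested, 13.6%, against 8.26% of all genes), at 8.06, 7.79 and 8.12 against 7.51, 7.56 and 7.64. Ccl2 averaged 11.71 at 16 h, 11.91 at 18 h and 10.98 at 28 h, so its 12 h mean of 11.14 lay above its mean at 28 h. Of 20 macrophage markers 0 were non-overlapping, against 8.26% higher and 4.14% lower of all genes. Laptm5, a lysosomal protein of leukocytes, was lower at 12 h on every array (8.63, 8.65 and 8.38 against 9.13, 9.37 and 8.89, difference -0.58, adjusted p = 0.261). A second probe set of Laptm5 gave -0.55.

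In the interferon list 3 of 25 tested members were higher without overlap (12.0%, near the 8.26% of all genes). Irf1, the interferon-induced transcription factor, stood at 8.19, 7.91 and 8.37 at 12 h against 7.89, 7.55 and 7.51 at 8 h, a difference of 0.51 with an adjusted p of 0.232. The arrays of 8 h marked o lay at 8.14 to 8.16, among those of 12 h, and the 16 h mean was 7.13. Psmb9, the immunoproteasome subunit, was 0.43 higher at 12 h (adjusted p = 0.363), and Ifi27 0.05.

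Slc25a30, a carrier of the mitochondrial inner membrane known from kidney, was the third gene called in the distal fit. Its levels were 10.15, 10.07 and 10.35 at 12 h, against 9.66, 9.71 and 9.63 at 8 h. Both groups were tight and 0.36 apart at their nearest. The difference was 0.52 (1.44-fold, 95% interval 0.35 to 0.70, adjusted p = 0.0162 in the distal fit, and 0.942 in the fit of all arrays), and a second probe set gave 0.63. It passed in 2 of the 6 fits that each left out 1 array. The distal mean was 9.48 at 1 h, 10.11 at 16 h and 9.77 at 28 h, and the 12 h mean of 10.19 did not differ from those of 16 and 18 h beyond their spread (SD 0.14, 0.15 and 0.10). The oxidative phosphorylation list, of other mitochondrial proteins, had 5 of 24 members higher without overlap (20.8%, against 8.26% of all genes) and 0 lower. Of the 24 members 21 were above 0, against 6911 of 12276 genes, but with a median difference of 0.06. Its members differed little: Cox4i1 by 0.08, Sdhb by 0.09, Ndufs1 by 0.13, Ndufb8 by 0.14 and Ndufs7 by 0.12.

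**Figure D3:**
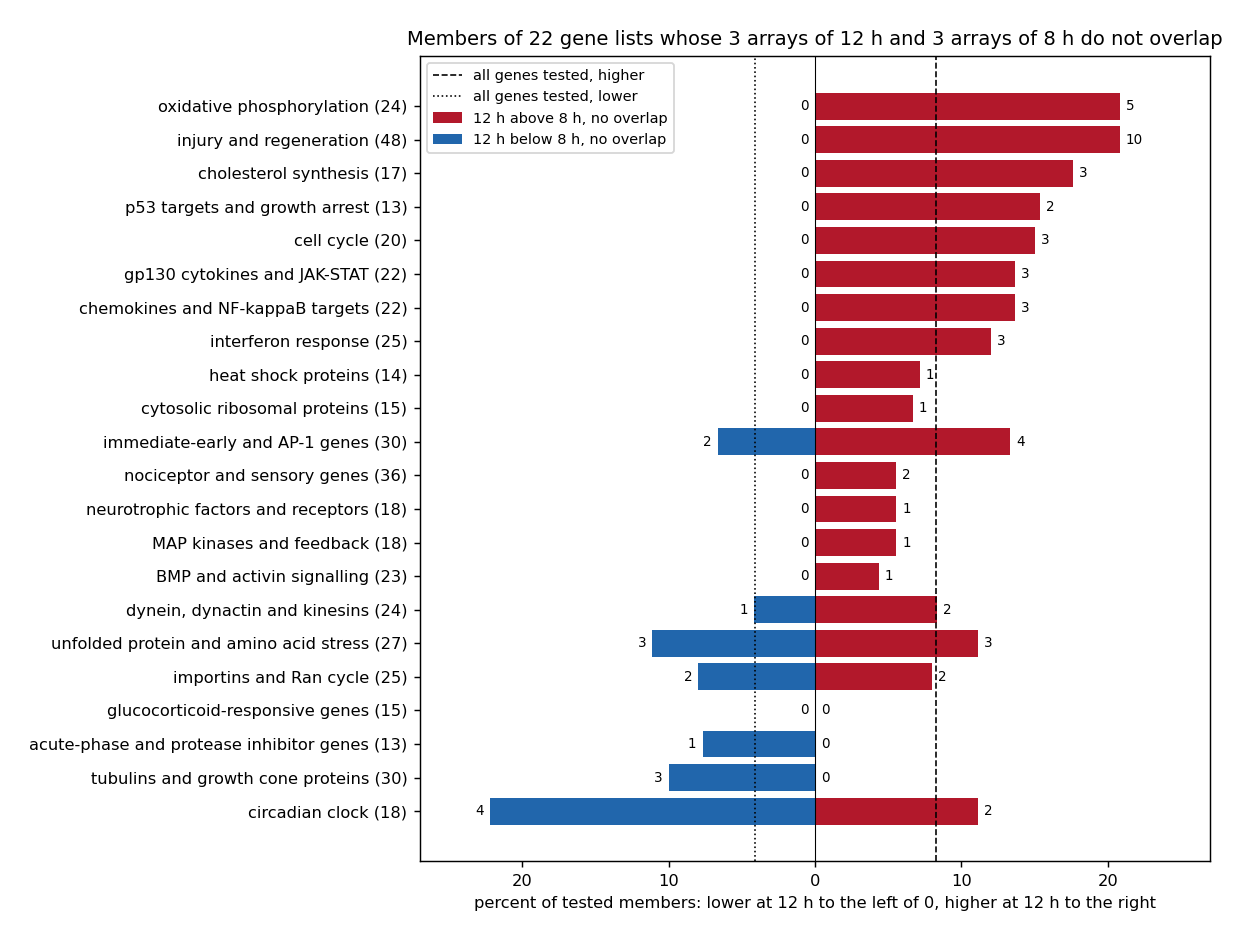
Percent of the tested members of 22 gene lists (numbers in brackets) whose 3 arrays of 12 h lie all above (red, right) or all below (blue, left) the 3 arrays of 8 h, with the number of such members at each bar. Dashed and dotted lines mark the same percents over all genes tested, 8.26 and 4.14. The injury and oxidative phosphorylation lists stand at 20.8% on the right and the clock list at 22.2% on the left.

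Of 8 tested satellite glia markers 2 were non-overlapping and higher at 12 h (25%, against 8.26% of all genes) and 0 lower. Fabp7, the brain fatty acid binding protein of these cells, was at 9.74, 9.07 and 10.48 at 12 h, against 8.64, 9.04 and 8.40 at 8 h. Array b of 12 h exceeded array b of 8 h by only 0.02, and the difference was 1.07 (2.10-fold, 95% interval 0.62 to 1.53, adjusted p = 0.0885). Both arrays of 8 h marked o lay within the 12 h range, at 9.40 and 9.47. The level at 8 h was the lowest of the distal hours: Fabp7 averaged 10.88 at 1 h, 10.75 at 3 h, 8.69 at 8 h, 9.76 at 12 h and 11.34 at 16 h. Gja1, the gap junction protein that couples satellite glia, was at 9.83, 9.59 and 10.12 against 9.58, 9.36 and 9.54 (difference 0.35, adjusted p = 0.409), and its second probe set was 0.64 higher at 12 h. Gfap overlapped, with 7.62 on array b of 12 h against 8.77 and 8.74 on a and c, and 8.14, 7.81 and 8.23 at 8 h.

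Endothelial markers were split. Of 13 tested, 4 were non-overlapping and lower at 12 h (30.8%, against 4.14% of all genes tested) and 1 higher. The lower members were Pecam1 (7.09, 7.27 and 7.22 at 12 h against 7.39, 7.43 and 7.66 at 8 h), Egfl7, Vwf and Tek, with differences from -0.30 to -0.18. Kdr, the VEGF receptor, was the higher one, at 9.22, 9.27 and 9.54 against 9.10, 9.02 and 9.10. Emcn overlapped but differed by more than the lower members did, by 0.41 (means of 9.25 at 12 h and 8.84 at 8 h). Of the 13 members, 4 had a difference above 0, against 6911 of 12276 genes. The list's mean level ran from 8.01 to 8.09 at 12 h and from 8.08 to 8.14 at 8 h. None of these passed the adjusted p with all 6 arrays. Emcn passed in 1 of the 6 distal fits that each left out 1 array.

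The circadian clock list had 4 of 18 tested members non-overlapping and lower at 12 h (22.2%, against 4.14%) and 2 higher (11.1%, against 8.26%). Of the 4 lower members, Npas2 lay below the filter level on average at both hours, where levels carry no order. Without each array in turn the lower count ran from 4 to 7 of 18, while the share of all genes ran from 6.31% to 13.6%. In the clock, Bmal1 with Clock or Npas2 drives E-box genes such as Nr1d1 and Dbp, and Nr1d1 in turn represses Bmal1 and Npas2. Nr1d1, which encodes REV-ERB alpha, was at 5.39, 6.92 and 5.95 at 12 h, against 7.04, 7.52 and 7.40 at 8 h. Array b of 12 h lay just below the 8 h arrays and a lay under the filter level. The difference was -1.23 (95% interval -1.74 to -0.72, adjusted p = 0.0885 in the distal fit and 0.942 in the fit of all arrays). It passed in 1 of the 6 distal fits that each left out 1 array, with differences from -1.65 to -0.88 and adjusted p up to 0.403. That 1 was the fit without array b of 12 h (adjusted p = 1.50e-04), where Nr1d1 was also the 1 gene called in the fit of all arrays (adjusted p = 0.0282).

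Dbp, an output factor of the clock, was at 7.81, 7.98 and 7.60 at 12 h against 8.25, 8.08 and 8.42 at 8 h (difference -0.45, adjusted p = 0.36). The other lower members were Csnk1e, a kinase of the period proteins (difference -0.11), and Npas2, which was below the filter level at both hours on average. Bmal1 was on the higher side, at 7.80, 7.46 and 7.92 against 7.43, 7.40 and 7.36 (difference 0.33, adjusted p = 0.512), and so was the repressor Bhlhe40, at 6.99, 7.05 and 6.86 against 6.77, 6.25 and 6.77. Per1 (difference -0.16) and Per2 (-0.07) overlapped. Over the distal hours Dbp averaged 8.25 at 8 h, 7.80 at 12 h, 6.71 at 16 h, 8.43 at 24 h and 8.95 at 28 h. Bmal1 ran the other way, at 7.40, 7.73, 8.42, 7.95 and 7.62 at the same hours, and Nr1d1 stood at 7.32, 6.09, 5.54, 7.83 and 7.80.

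**Figure D4:**
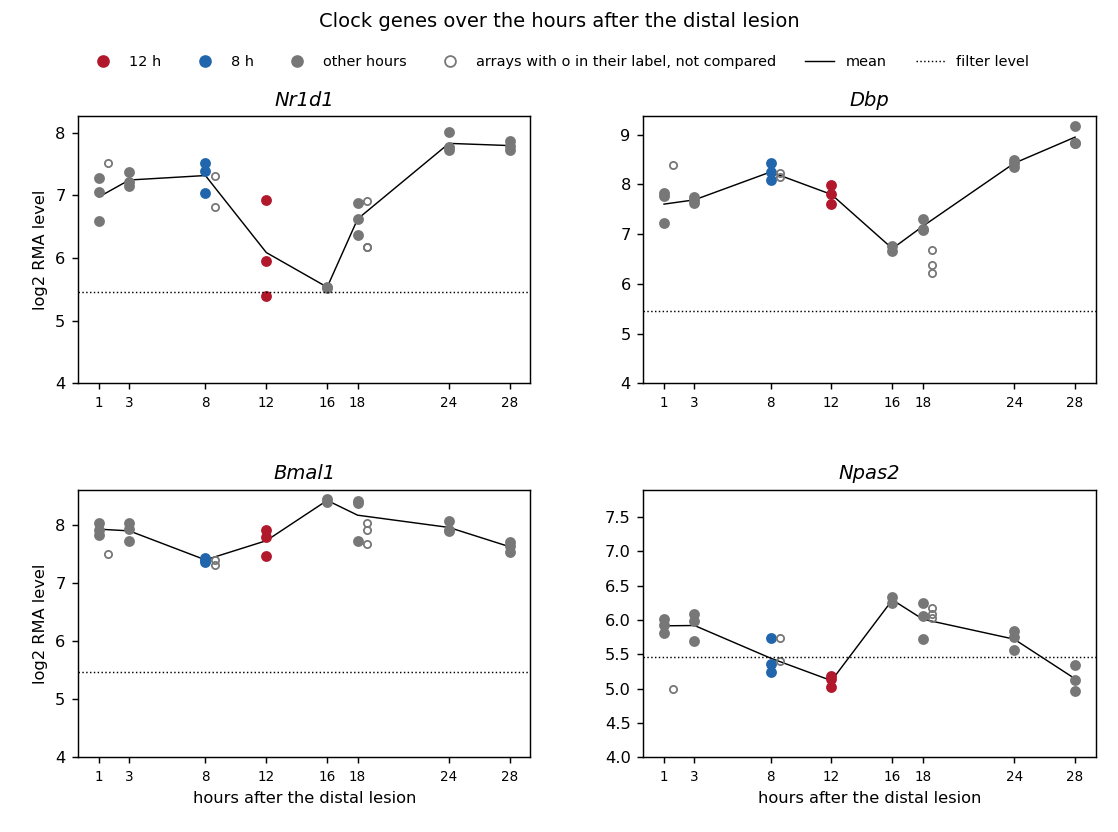
Log2 RMA levels of Nr1d1, Dbp, Bmal1 and Npas2 on every distal array (vertical axes) by hours after the lesion (horizontal axes), with 12 h in red, 8 h in blue, other hours in grey, arrays marked o as open circles and the filter level as a dotted line. Among arrays with letters a to c, Nr1d1 and Dbp have their lowest distal mean at 16 h (5.54 and 6.71), the hour of the highest mean of Bmal1 (8.42), while the arrays of 18 h marked o have Dbp lower still, at a mean of 6.42.

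Promoters are shown for the 2 higher clock genes, Bmal1 and Bhlhe40, each of which held 1 of the motifs searched for. The RefSeq table covered all 6 non-overlapping clock genes. Of these, 1 held TAGGTCA (Bmal1), 1 CACGTG (Bhlhe40), 1 TTCNNNGAA (Dbp) and 0 held TGACTCA or TGACGTCA. Over all rat promoters 2.26%, 5.59%, 7.67%, 4.05% and 1.59% held them, in the order just given. Nr1d1 and Dbp, the E-box genes named above, held no CACGTG here, and Npas2 held no TAGGTCA. In the promoter of Bmal1 (chr1:176766078-176766327, plus strand, GRCr8) the capitals mark TAGGTCA, beginning 16 bases before the start. In that of Bhlhe40 (chr4:143174200-143174449, plus strand) they mark CACGTG, 220 bases before it.
Bmal1: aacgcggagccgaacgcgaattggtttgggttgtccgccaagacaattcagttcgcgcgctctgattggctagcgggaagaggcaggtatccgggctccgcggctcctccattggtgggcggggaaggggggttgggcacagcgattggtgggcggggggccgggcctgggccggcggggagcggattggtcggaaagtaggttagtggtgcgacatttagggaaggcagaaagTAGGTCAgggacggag
Bhlhe40: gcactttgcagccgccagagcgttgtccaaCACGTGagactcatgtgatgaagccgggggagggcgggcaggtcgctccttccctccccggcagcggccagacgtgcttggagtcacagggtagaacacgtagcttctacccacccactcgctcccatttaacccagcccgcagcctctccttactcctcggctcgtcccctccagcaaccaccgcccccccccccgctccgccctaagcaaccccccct

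Glucocorticoid-responsive genes, which follow the daily hormone rhythm and surgical stress, had 0 of 15 tested members non-overlapping. Over all genes tested 8.26% were non-overlapping and higher and 4.14% lower. In this list 3 of 15 were higher at 12 h, against 6911 of 12276 genes, with a median difference of -0.12. Fkbp5, a chaperone of the glucocorticoid receptor, was at 9.74, 10.42 and 9.05 at 12 h against 9.89, 10.25 and 10.29 at 8 h. Array b of 12 h was here the highest of its group. The distal mean of Fkbp5 was 10.14 at 8 h, 9.74 at 12 h and 8.29 at 16 h.

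Genes of cholesterol synthesis were mostly higher at 12 h, by small amounts. Of 17 tested members 16 were higher at 12 h, against 6911 of 12276 genes, with a median difference of 0.20. In the distal fit 10 were higher at an unadjusted p under 0.05, against 6.35% of all genes. Only 3 were non-overlapping (17.6%, against 8.26%), all higher: Msmo1 (12.37, 12.27 and 12.44 at 12 h against 12.24, 11.96 and 12.19 at 8 h), Fdft1, the squalene synthase, and Fdps, the farnesyl pyrophosphate synthase. Without array b of 12 h, 14 of 17 were non-overlapping and higher, against 17.1% of all genes, and without each of the other 5 arrays 3 to 5 of 17 were, against 12.1% to 18.1%. Dhcr7, the last enzyme of the pathway, passed in 1 of the 6 distal fits that each left out 1 array, the fit without b (adjusted p = 0.02), with adjusted p up to 0.732 in the others. The mean level of the list was 10.83, 10.58 and 10.91 at 12 h against 10.61, 10.48 and 10.62 at 8 h, so b lay within the range of 8 h. The 2 distal arrays of 16 h were at 11.03 and 10.99. None passed the adjusted p with all 6 arrays.

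In the list of unfolded protein and amino acid stress genes 3 of 27 tested members were non-overlapping and higher (11.1%, against 8.26% of all genes) and 3 lower (11.1%, against 4.14%). Phgdh, the first enzyme of serine synthesis, was at 10.47, 10.32 and 10.56 at 12 h against 10.05, 9.86 and 10.06 at 8 h (difference 0.46, 95% interval 0.27 to 0.66, adjusted p = 0.0885). Psat1, the next enzyme of that route, was 0.17 higher and the kinase Eif2ak3 0.21. The lower members were the chaperone Calr (difference -0.16), the pseudokinase Trib3 (-0.21) and Shmt2 (-0.14). The 2 arrays of 8 h marked o had Phgdh at 10.31 and 10.74, 1 just below the lowest array of 12 h and the other above the highest.

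Of the MAP kinase list 14 of 18 tested members were higher at 12 h, against 6911 of 12276 genes. The median difference was 0.14, against 0.02 over all genes. Dusp6, the phosphatase that ERK induces and that switches ERK off, was at 9.96, 9.61 and 8.92 at 12 h, against 9.30, 6.87 and 9.27 at 8 h. Its groups overlapped, and the low value came from array b of 8 h, but its 2 other probe sets were 0.63 and 0.82 higher at 12 h, at unadjusted p of 5.26e-04 and 6.88e-05. Mapk8, which encodes the kinase JNK1, was the 1 of the 18 without overlap (5.56%, against 8.26% of all genes), 0.15 higher. The mean level of the list was 8.87, 8.87 and 8.91 at 12 h against 8.77, 8.64 and 8.81 at 8 h and did not overlap. Among dyneins, dynactins and kinesins 2 of 24 were higher (8.33%) and 1 lower (4.17%), near the shares of all genes (8.26% and 4.14%). Among importins and the Ran cycle 2 of 25 were higher (8.0%, against 8.26%) and 2 lower (8.0%, against 4.14%). Kif3a differed by 0.26 on its main probe set and by -0.25 on another.

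Of 30 tubulin and growth cone genes 0 were higher without overlap (against 8.26% of all genes) and 3 lower (10%, against 4.14%). The 3 lower genes all encode microtubule-associated proteins of neurons. Mapt, which encodes tau, was at 10.86, 10.82 and 10.67 at 12 h against 11.14, 11.14 and 11.24 at 8 h (difference -0.39, adjusted p = 0.491). Its other probe sets gave -0.28 and -0.03. Map2 differed by -0.14 and Map1b by -0.09. Nociceptor and sensory genes had 2 of 36 higher (5.56%, against 8.26%) and 0 lower. Calcb, which encodes the beta form of CGRP, was at 12.33, 12.25 and 12.41 against 12.10, 12.15 and 12.07 (difference 0.22, adjusted p = 0.25), and P2rx2, an ATP-gated channel, 0.21 higher. The sodium channel Scn10a and the capsaicin receptor Trpv1 overlapped, with differences of -0.12 and 0.11. Bdnf was the 1 of 18 neurotrophic genes without overlap (5.56%, below the 8.26% of all genes), at 9.39, 9.41 and 9.67 against 9.28, 8.88 and 9.30.

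The genes with the smallest p in the fit of all arrays included some outside these lists. On the higher side Cmtm3, a membrane protein of the chemokine-like MARVEL family, was at 8.67, 8.33 and 8.68 at 12 h against 8.22, 8.09 and 8.15 at 8 h. Pcdh18, a protocadherin, was at 9.43, 9.10 and 9.73 against 8.96, 8.56 and 8.67. Both were non-overlapping, with differences of 0.40 and 0.69 and adjusted p of 0.228 and 0.186 in the distal fit. On the lower side were Pip5k1a, a phosphoinositide kinase (7.23, 6.96 and 6.74 against 7.46, 7.54 and 7.57), and Etfbkmt, a mitochondrial methyltransferase (8.22, 8.03 and 6.98 against 8.25, 9.10 and 8.61). Etfbkmt had a second probe set at -0.51, and its 3 arrays of 12 h ranged over 1.23 units.

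The same 4 hours after the proximal lesion and after sham surgery gave larger counts. After sham surgery 1058 genes passed between 12 h and 8 h in the fit of all arrays (8.62%), 848 higher and 210 lower, and after the proximal lesion 32 (0.261%), 24 higher and 8 lower. The difference between the distal change and the sham change passed for 0 genes (0%, with 1607 at an unadjusted p under 0.05 and a smallest adjusted p of 0.0511), and so did the difference from the proximal change (0%, 818, and 0.109). The 2 sham arrays of 12 h disagreed with each other. Sham array b of 12 h had Atf3 at 11.55 and array a at 7.32, against 6.14, 6.56 and 6.62 at 8 h. Without array a the sham count was 4203 and without array b it was 652. Arrays fall into 4 sets by the levels of probe sets below the filter. All 6 distal arrays compared lie in 1 set, while array b of 12 h lies in another set than the 8 h arrays after both sham surgery and the proximal lesion.

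After the proximal lesion Atf3 was at 10.58 and 11.46 at 12 h against 7.79, 7.46 and 7.26 at 8 h, a difference of 3.52 that passed at an adjusted p of 0.00163. Both proximal arrays of 12 h were near or above the highest distal one. The distal change minus the proximal change was -1.81, and the distal change minus the sham change was -1.29, and neither passed (adjusted p = 0.679 and 0.464). Within the set that holds the 8 h arrays, array a of 12 h was 3.07 above 8 h after the proximal lesion and 0.88 above it after sham surgery. Reg3b passed after the proximal lesion (8.53 and 8.89 at 12 h against 6.82, 6.77 and 7.43 at 8 h, adjusted p = 0.0285). It also passed after sham surgery (6.94 and 9.56 at 12 h against 6.91, 6.48 and 6.75 at 8 h, adjusted p = 0.0119), but array b, the sham array with high Atf3, carried that difference, and array a differed by 0.23 from the 8 h mean. Ccl2 was 0.82 higher at 12 h than at 8 h after the proximal lesion (adjusted p = 0.239). After sham surgery it was at 8.58 and 10.56 at 12 h against 8.37, 8.72 and 9.11 at 8 h, a difference of 0.84 (adjusted p = 0.0667) that rests on array b, while array a differed by -0.15 from the 8 h mean. Nr1d1 differed by -1.16 after the proximal lesion and by -0.50 after sham surgery, at adjusted p of 0.12 and 0.31. Fabp7 passed after the proximal lesion (9.30 and 10.21 against 8.40, 8.19 and 7.65, adjusted p = 0.0214), but its sham difference of 0.29 did not (adjusted p = 0.612).

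**Figure D5:**
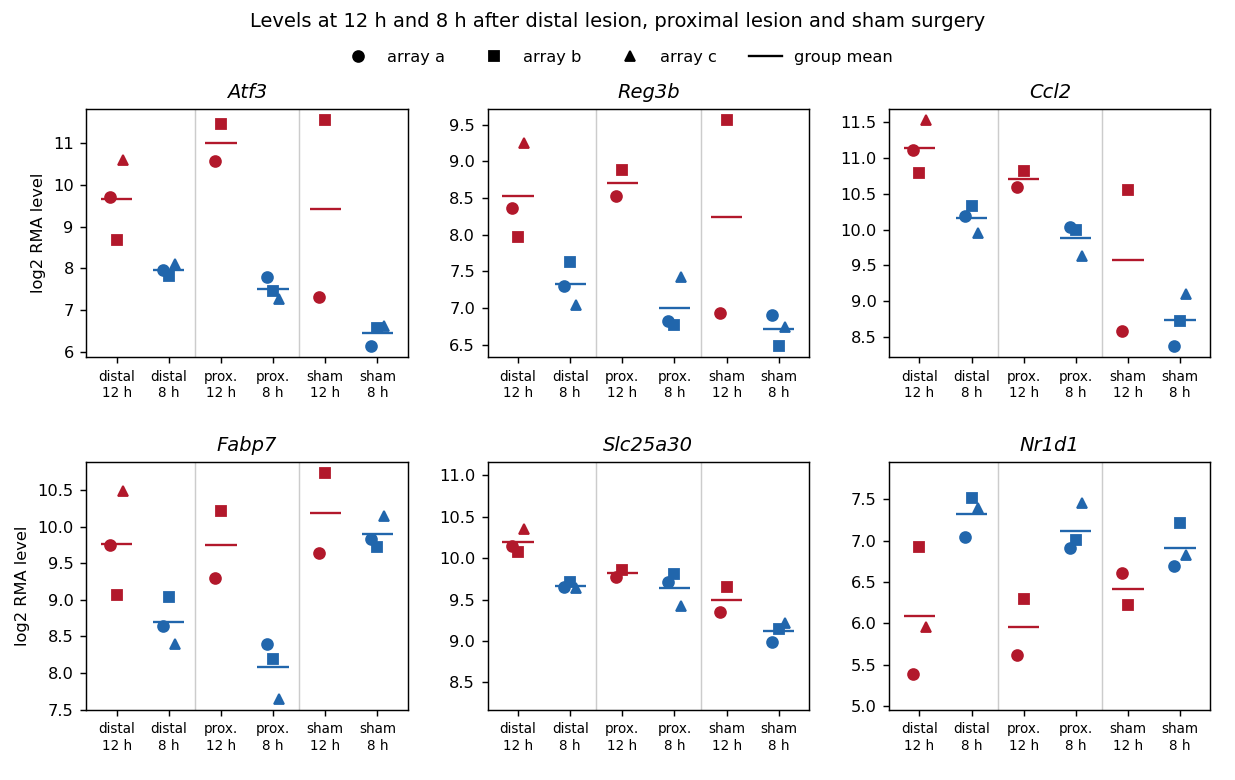
Log2 RMA levels (vertical axes) of 6 genes at 12 h (red) and 8 h (blue) after the distal lesion, the proximal lesion and sham surgery, with array letters as symbols and group means as lines. Sham array b of 12 h has Atf3 at 11.55 and array a at 7.32, while Nr1d1 is lower on every array of 12 h than on every array of 8 h after the distal lesion, the proximal lesion and sham surgery.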

How the data were processed

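The authors deposited log2 expression levels per probe set, made with RMA, per the submitters' processing notes. RMA as a method corrects background, applies quantile normalization and summarizes the probes of a set. Version and chip annotation are not given in the sources used here, nor is whether all 72 arrays were normalized together. The file held 31099 probe sets, of which 57 controls were left out. Probe sets with 1 symbol in the platform annotation (20826, against 436 with several and 9780 with none) were named, and each of 14217 genes took its brightest probe set on average. Genes whose mean lay under 5.46 log2, the 25th percentile, were not tested. Where 1 group lay below that level, its fold is a bound, the brighter mean over the filter level.

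Tests used limma 3.58.1 in R 4.3.3 (data.table, version 1.17.8), with 1 mean for each of 27 groups over all arrays (45 residual degrees of freedom), empirical Bayes moderation with a trend, two-sided, and a Benjamini-Hochberg adjusted p under 0.05 over 12276 genes. A fit of the 23 distal arrays with letters a to c (15 degrees of freedom) was an alternative to it and gives the intervals. The scripts were tested on simulated data. The number of arrays limits the precision. Alternatives covered filters, normalization, array weights, the trend, arrays marked o, blocks, probe sets and leaving out arrays.

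Genes named were, since the fit of all arrays called none, the 6 with the smallest p in each direction, up to 4 per list by smallest p, and chosen injury, clock and sensory genes whatever their values. Others named here are list members without overlap, chosen after their values were seen. The comparison, the members and the 35 gene lists were chosen with earlier results of these data known. Promoters came from the RefSeq promoters of build GRCr8, searched by symbol.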

Additional observations from a re-analysis of the deposited data

How the results depend on the processing

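Between 12 h and 8 h after the distal lesion the count of genes called in the fit of all arrays was 0, and stayed 0 with no filter, a filter at the 50th percentile, another quantile normalization, arrays shifted to the same median, no trend, arrays marked o left out or joined to their hour, the 6 arrays alone, and the 4 array sets as a block, a setting added after seeing the data. It was 3 in the fit of distal arrays, 62 with array weights (44 higher and 18 lower) and 1 with every named probe set. That probe set belongs to Gpr137b (0.90, adjusted p = 0.00456), whose brighter probe set gave -0.33, and it was named after its values were seen. Leaving out each array gave 0 to 1 genes in the fit of all arrays and 0 to 63 in the fit of distal arrays (0 without array a of 12 h, 63 without b, 1 without c, 4 without a or b of 8 h, 0 without c), the second set of fits and the list counts without 1 array having been added after seeing the data. The array letters did not pair the samples (correlations of deviations 0.06, -0.08 and -0.21 for a, b and c). With the letter as a replicate block the count was 0 in the fit of all arrays and 9 in the fit of distal arrays (7 higher and 2 lower, among them Nr1d1, Flrt3 and Gadd45a at adjusted p of 0.00802, 0.0355 and 0.0364), this setting also added after seeing the data. Of the alternative values of single named genes against the fit of all arrays, which had no call to lose, 2800 kept direction and side of the threshold, and 65 turned sign without a call on either side. Without array c of 8 h the skeletal muscle genes Atp2a1, Ckm and Actn3 turned to 0.77, 0.74 and 0.95, against -0.89, -0.81 and -0.63. A call was gained in 16, 12 of them with array weights (Atf3, Ccl2, Ccl7, Cmtm3, Ctdspl, Fabp7, Laptm5, Nr1d1, Pcdh18, Phgdh, Reg3b and Slc25a30). In the fit of distal arrays Atf3, Ccl2 and Slc25a30 kept their calls in 4, 3 and 2 of the 6 fits without 1 array. Without array b of 12 h 17 of 160 named genes were called higher and 2 lower, against 58 and 5 of 12276 genes. The named genes were chosen partly by small p in this same comparison, so that share is raised by the choice.

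The comparison groups depended more on the processing. The sham count of 1058 was 1679 with another quantile normalization and 0 with array weights (558 at an unadjusted p under 0.05), and 227 to 4203 without 1 array (4203 and 652 without 12 h a or b, 227 and 489 without 8 h a or c). Its split of 848 higher and 210 lower was 494 and 998 with arrays shifted to the same median, 1093 and 586 with another quantile normalization, and 461 and 541 with the sets as a block. The proximal count of 32 (24 higher and 8 lower) was 260 (167 and 93) with another quantile normalization, 329 (132 and 197) with the shift to the same median, 0 with array weights (247 at an unadjusted p under 0.05), 57 without arrays marked o and 841 (120 and 721) with the sets as a block, and 3 to 851 without 1 array (851 and 7 without 12 h a or b, and 8, 3 and 4 without 8 h a, b or c). The difference of the distal from the sham change, 0 genes, was 306, 182, 7 and 193 under quantile normalization, the same median, no arrays marked o and the sets as a block, 1 with a filter at the 50th percentile, 2 with no trend, and 0 to 327 without 1 array (327 and 297 without sham 12 h a or b, 24 without sham 8 h b, 5 without distal 12 h c). That from the proximal change was 13, 4, 1 and 264 in that order, and 0 to 5 without 1 array (5 without proximal 12 h a, 1 without distal 8 h c). The cause was not tested. A planned block for the sets within the 6 arrays was not run, since all 6 lie in 1 set.

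With 3 arrays a group, and 12 h arrays that differ among themselves, small differences were not detectable. Levels below the filter (Il6, Vip, Sprr1a and Npas2 at both hours, Sox11 at 8 h) carry no order.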

Other observations

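Cell cycle genes had 3 of 20 tested members non-overlapping and higher at 12 h (15.0%, against 8.26% of all genes tested) and 0 lower: the kinases Cdk1 (6.58, 6.57 and 6.85 at 12 h against 6.48, 6.55 and 6.12 at 8 h) and Cdk4 (10.51, 10.41 and 10.45 against 10.39, 10.17 and 10.26), and the topoisomerase Top2a (5.69, 5.59 and 5.57 against 5.46, 5.44 and 5.27, close to the filter level). Their adjusted p in the fit of distal arrays ran from 0.504 to 0.63. Of the growth arrest and p53 list 2 of 13 were higher without overlap (15.4%, against 8.26%), Gadd45a and the membrane protein Perp (difference 0.28). In the BMP and activin list 1 of 23 was higher without overlap (4.35%, Smad1). In the heat shock list it was 1 of 14 (7.14%, the co-chaperone Dnajb1, difference 0.19). In the cytosolic ribosomal protein list it was 1 of 15 (6.67%, Rpl3, 0.07). The shares of the BMP, heat shock and ribosomal protein lists each lay below the 8.26% of all genes tested. Hspa4, a heat shock protein, differed by -0.52 through array c of 12 h alone (9.97, 9.90 and 8.76 against 10.16, 9.92 and 10.10).

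In the acute-phase list 1 of 13 members was non-overlapping and lower at 12 h (7.69%, against 4.14% of all genes tested). It was the haptoglobin gene Hp (6.38, 6.47 and 6.33 against 6.53, 6.67 and 6.63). Among connective tissue markers 1 of 16 was lower without overlap (6.25%, against 4.14%, Col5a1, difference -0.10). Among neutrophil markers it was 1 of only 2 tested (50%, against 4.14%), S100a9 (5.83, 5.73 and 5.54 at 12 h against 6.79, 5.90 and 6.51 at 8 h). Markers of erythrocytes (4 genes), lymphocytes (6), pericytes and smooth muscle (9), skeletal muscle (12), adipocytes (2) and spinal cord (2) had 0 members without overlap. Over all genes tested the shares were 8.26% higher and 4.14% lower, so lists of 2 to 12 genes would hold few such members.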
